A study of Mus musculus with 31 samples.

Results

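The 6 genes described here, Ttr, Stra6, Lrat, Rpe65, Rdh5 and Rgr, were chosen by symbol from the known visual cycle and pigment epithelium genes, and all 6 were among the 18193 genes measured. Their mRNA was measured on Affymetrix arrays in 31 mouse retina samples, each of which pooled the 2 retinas of 1 mouse. The mice were 14 (P14) or 28 (P28) days old and had 4 genotypes: +/+ (wild type), Rorb-/- (without the nuclear receptor gene Rorb), +/+;CrxpNrl and Rorb-/-;CrxpNrl. By its name CrxpNrl is a transgene in which the promoter of Crx, a gene of photoreceptors and their precursors, drives Nrl, which encodes a rod transcription factor. Each of the 8 groups of age and genotype held 4 mice, except P28 +/+;CrxpNrl with 3. Strain, sex and the number of transgenic lines are not given in the labels, and Rorb-/- is given without a restriction to a tissue.

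Photoreceptors detect light when 11-cis-retinal bound to opsin is turned into its all-trans form, and the visual cycle restores the 11-cis form in the retinal pigment epithelium, a sheet of pigmented cells behind the photoreceptors. Transthyretin (Ttr) travels with the retinol carrier of blood, and Stra6 is the cell surface receptor that takes retinol up from that carrier. Inside the cell Lrat attaches retinol to a fatty acid, Rpe65 converts the ester to 11-cis-retinol, and Rdh5 oxidises this to 11-cis-retinal, while Rgr is an opsin of the pigment epithelium and Müller glia. When a retina is dissected, some pigment epithelium may stay attached to it, so adherent pigment epithelium is a possible source of these transcripts. Other pigment epithelium genes, genes of melanin synthesis among them, are therefore given beside the members.

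Signals are on a log2 scale, on which a difference of 1 is a 2-fold change, and levels of different genes cannot be compared because each probe set has its own response. Differences are those of group means ± SE from limma with all arrays in the fit. P-values were adjusted after Benjamini and Hochberg over the 18193 genes, and a gene is called at adjusted p under 0.05. Array medians lay between 5.842 and 5.906, and lower quartiles between 3.978 and 4.05. The number of arrays limits the precision. Rorb signal was lower in every Rorb-/- mouse (9.58 to 9.95 at P14, 9.09 to 9.98 at P28) than in every +/+ mouse (10.8 to 11.1 at P14, 10.4 to 10.8 at P28), and whether its probe set lies in the deleted part is not known. The 6 measured rod genes averaged 12.2 to 13.2 in P14 +/+ and 8.94 to 11.0 in P14 Rorb-/-, where 5 were called lower with a median of -4.03 (13.9% of all genes were called lower), and 4 were lower in P28 Rorb-/- against +/+ (15.2% of all genes). Of 7 Müller glia genes, with a mean of 10.4 to 10.7 in P14 +/+, 4 were higher and 2 lower at P14 (16% of all genes were higher), and 4 were higher at P28 (15.9% of all genes). The part of these shifts in the members' results was not tested. The mouse P28 +/+ replicate 3 had the highest signal of its group for all 6 members, and calls that change without it are given both ways. Fits with melanin genes as a covariate and values relative to melanin genes were not repeated without it. This mouse also stood apart in lens genes, with a mean of 10.6 over 11 genes against 6.10 to 7.62 in its group. P28 Rorb-/- replicate 4, the lowest of its group for all 6 members, had the lowest lens mean of all mice, 4.95 against 7.22 to 10.9 in its group. In P14 Rorb-/-;CrxpNrl replicate 4 the lens mean was 10.9 and Rpe65 4.96. In P28 Rorb-/- replicates 1 and 2 the lens means were 10.8 and 10.9 and Rpe65 6.62 and 6.56, against 5.86 and 5.28 in replicates 3 and 4. The part of lens tissue in the members' levels was not tested.

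Upstream sequences of the 2 genes with the largest P14 differences, Rpe65 and Rgr, and of Stra6, the member whose differences were not called in any comparison, are shown for reference. They are the 250 bases before the RefSeq transcription start (GRCm38.p6), 5′ to 3′ on the strand of the gene, and capitals mark matches to TAATCC (bound by the homeodomain factors Otx2 and Crx) or to CATGTG (an E-box of the Mitf family), on either strand. Rpe65 lies at chr3:159598931-159599180 on the plus strand, Rgr at chr14:37049015-37049264 on the minus strand and Stra6, the first of 4 annotated starts, at chr9:58128838-58129087 on the plus strand.
Rpe65: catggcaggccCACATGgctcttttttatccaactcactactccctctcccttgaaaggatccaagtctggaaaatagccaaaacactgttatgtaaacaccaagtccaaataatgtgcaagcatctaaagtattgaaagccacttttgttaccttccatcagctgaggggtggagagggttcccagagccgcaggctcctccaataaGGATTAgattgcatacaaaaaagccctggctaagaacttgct
Rgr: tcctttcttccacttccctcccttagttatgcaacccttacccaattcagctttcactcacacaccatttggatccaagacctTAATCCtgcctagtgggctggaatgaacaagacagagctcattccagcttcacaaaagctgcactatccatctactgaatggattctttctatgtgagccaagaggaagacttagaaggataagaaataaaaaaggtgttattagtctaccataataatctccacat
Stra6: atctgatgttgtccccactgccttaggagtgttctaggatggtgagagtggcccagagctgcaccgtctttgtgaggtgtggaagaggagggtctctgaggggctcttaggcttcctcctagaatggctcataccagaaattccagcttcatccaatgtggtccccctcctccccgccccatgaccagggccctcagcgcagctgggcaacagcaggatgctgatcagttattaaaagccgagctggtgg
Rpe65 held TAATCC on the opposite strand 42 bases before the start and CATGTG on the opposite strand 239 bases before it. Rgr held TAATCC on its own strand 167 bases before the start. The windows of Lrat, Rdh5 and all 4 Stra6 starts held neither of these motifs. Ttr was not among the promoter sequences and could not be searched. No window of the other members held CACGTG, another E-box, or AGGTCA, a half-site of nuclear receptors. Of 32851 mouse promoters of the same length, 6.25% held TAATCC, 12.3% CATGTG, 6.02% CACGTG and 14.0% AGGTCA, so single matches of this kind are common.

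At P14 the 5 members other than Stra6 were far lower without Rorb. Rpe65, the isomerase, measured 8.08, 8.43, 8.08 and 8.22 in the P14 +/+ mice and 5.01, 4.99, 4.99 and 4.39 in the P14 Rorb-/- mice. Rgr, the pigment epithelium opsin, measured 8.65, 9.35, 9.15 and 9.32 against 5.29, 5.36, 5.52 and 5.01. Every Rorb-/- mouse was below every +/+ mouse for both genes, by more than the whole spread of either group. The difference was -3.35 ± 0.44 for Rpe65 (limma, adjusted p = 6.42e-07) and -3.83 ± 0.52 for Rgr (limma, adjusted p = 1.05e-06).

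The retinol carrier partner and the other enzymes followed the same direction by less. Ttr measured 11.95, 12.40, 12.34 and 12.49 in the P14 mice with Rorb and 9.18, 9.46, 10.45 and 8.81 in those without it. Lrat measured 6.18, 7.20, 6.48 and 6.55 against 5.40, 4.67, 4.06 and 4.32, and Rdh5 measured 7.44, 8.29, 8.01 and 8.40 against 5.62, 6.06, 6.22 and 5.90. The groups did not overlap for any of these 3 genes, and 14.1% of all genes were likewise lower without overlap. Ttr fell by 2.82 ± 0.51 (limma, adjusted p = 7.29e-05), Lrat by 1.99 ± 0.44 (adjusted p = 0.000765) and Rdh5 by 2.08 ± 0.33 (adjusted p = 9.94e-06). Lrat in P14 Rorb-/- reached down to the lower quartile of the arrays, so the size of its fall is not well resolved. The 3 further Ttr probe sets gave -2.76, -2.93 and -2.88, and a dimmer second Lrat probe set gave -1.29.

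Stra6, the retinol receptor, did not share the pattern. Its 4 P14 +/+ mice measured 6.004, 6.13, 5.95 and 6.39 and its P14 Rorb-/- mice 6.77, 6.24, 6.10 and 6.05, which overlap, with a difference of 0.17 ± 0.20 (limma, adjusted p = 0.596). In all, 5 of 6 members were called lower in P14 Rorb-/- against +/+, where 13.9% of all genes were called lower, and their median difference was -2.45 against -0.0069 over all genes. In these whole-tissue samples fewer pigment epithelium cells and less RNA per cell cannot be told apart.

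**Figure D1:**
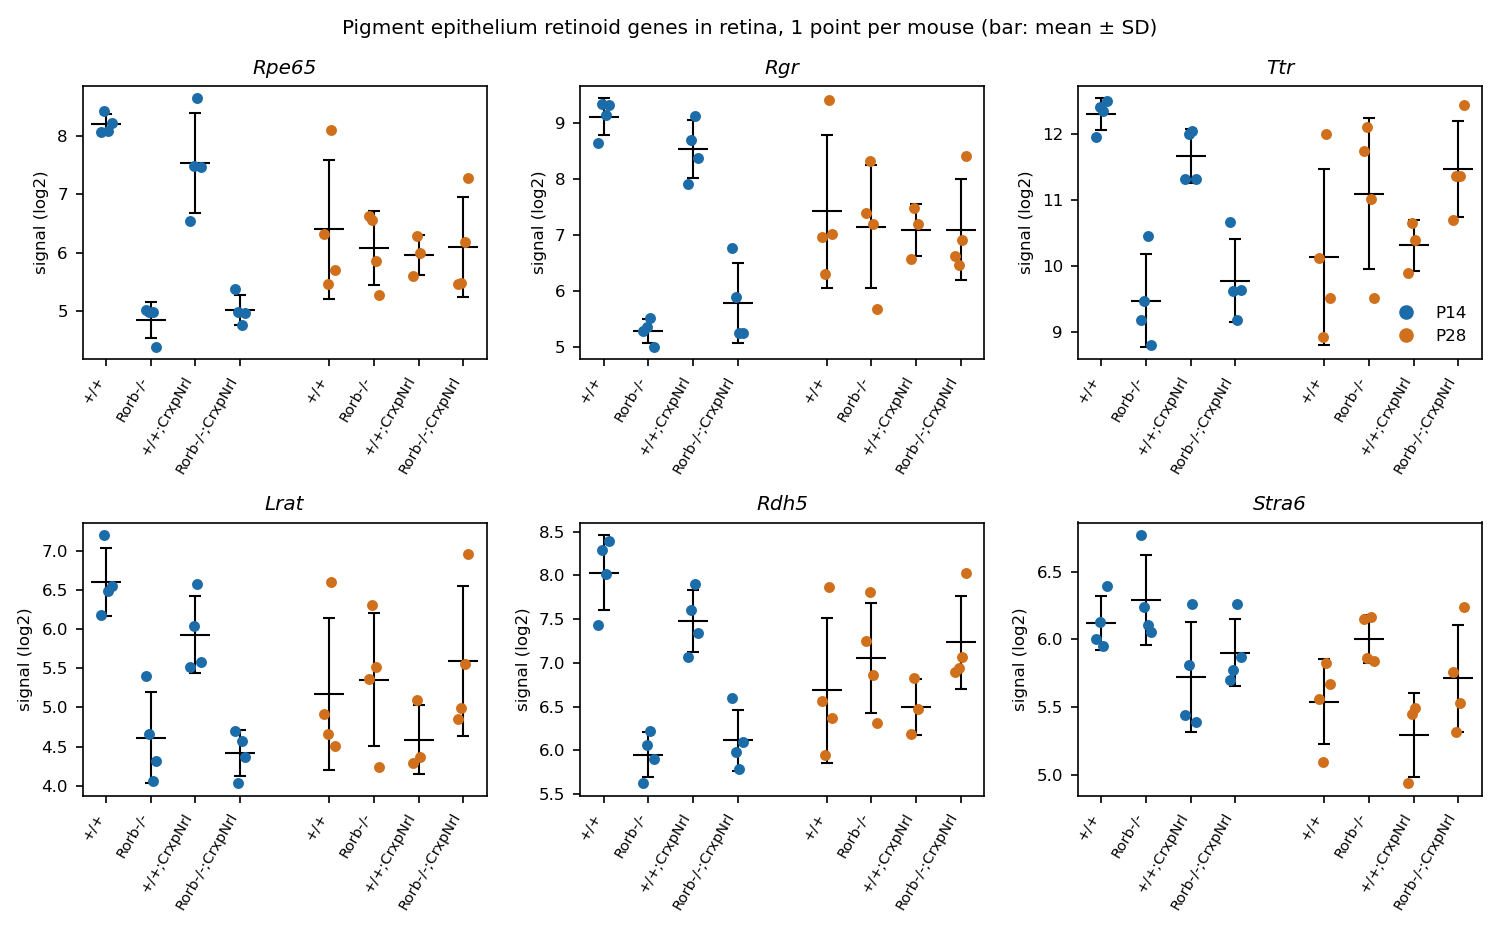
Signal (log2) of each of the 6 genes in every mouse, by genotype, for P14 (blue) and P28 (orange); each point is 1 mouse and black bars are the group mean ± SD (n = 4, or 3 in P28 +/+;CrxpNrl). At P14 the mice without Rorb lie below those with it for all genes but Stra6, while at P28 the groups overlap for most genes.

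The fall at P14 was also present in mice with the transgene. Rpe65 measured 6.54, 7.48, 8.64 and 7.48 in the 4 mice with Rorb and the transgene, and 5.38, 4.98, 4.76 and 4.96 in the 4 with the transgene and without Rorb, a difference of -2.51 ± 0.44 (limma, adjusted p = 5.09e-05). Rgr measured 7.91, 8.71, 9.13 and 8.38 against 6.77, 5.89, 5.25 and 5.25, a difference of -2.74 ± 0.52 (adjusted p = 0.000135). The groups did not overlap for either gene, as for 14.5% of all genes. Ttr fell by 1.89 (adjusted p = 0.00519), from a range of 11.31 to 12.04 to one of 9.18 to 10.66. Lrat fell by 1.51 (adjusted p = 0.00928) and Rdh5 by 1.36 (adjusted p = 0.00174), again without overlap, and Stra6 differed by 0.18 (adjusted p = 0.588). Thus 5 of 6 members were called lower, against 13.8% of all genes.

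At P28 none of these members was called in Rorb-/- against +/+ (0 of 6 by limma, 1 of 6, Stra6, at an unadjusted p under 0.05), where 31.1% of all genes were called in either direction. Rpe65 measured 6.33, 5.47, 8.11 and 5.71 in P28 +/+ and 6.62, 6.56, 5.86 and 5.28 in P28 Rorb-/-. Rgr measured 6.97, 6.30, 9.41 and 7.02 against 7.39, 8.33, 7.20 and 5.69, and Ttr 10.12, 8.92, 12.001 and 9.51 against 11.74, 12.09, 11.02 and 9.51. The groups overlapped for all 3 genes, with P28 +/+ replicate 3 above the other 3 mice of its group each time and P28 Rorb-/- replicate 4 lowest of its group. The differences were -0.32 ± 0.44 for Rpe65 (limma, adjusted p = 0.641), -0.27 ± 0.52 for Rgr (adjusted p = 0.753) and 0.95 ± 0.51 for Ttr (adjusted p = 0.171). Without P28 +/+ replicate 3 the difference of Ttr was 1.58 and passed the threshold (adjusted p = 0.0107), and those of Rpe65 and Rgr were 0.24 and 0.39 and did not. Without P28 Rorb-/- replicate 4 that of Ttr was 1.48 (adjusted p = 0.0238).

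Lrat, Rdh5 and Stra6 were not called either. Lrat measured 4.91, 4.66, 6.60 and 4.505 in P28 +/+ and 5.36, 6.31, 5.51 and 4.24 in P28 Rorb-/- (0.18 ± 0.44, limma adjusted p = 0.808). Rdh5 measured 6.57, 5.95, 7.87 and 6.37 against 7.25, 7.81, 6.86 and 6.31 (0.37 ± 0.33, adjusted p = 0.445). Stra6 measured 5.56, 5.10, 5.83 and 5.67 against 6.15, 5.86, 6.17 and 5.84, so all 4 Rorb-/- mice were above all 4 +/+ mice (as for 15.6% of all genes), yet its difference of 0.47 ± 0.20 missed the threshold (adjusted p = 0.0862). In Rorb-/-;CrxpNrl against +/+;CrxpNrl at P28, 0 of 6 members were called by limma (3 at an unadjusted p under 0.05, namely Ttr, Lrat and Rdh5), where 36.6% of all genes were called. Ttr gave 1.16 ± 0.55 (adjusted p = 0.107) and its mice did not overlap (10.69, 11.37, 11.37 and 12.44 against 9.89, 10.65 and 10.39), nor did those of Rdh5 (6.90 to 8.03 against 6.19 to 6.83), where 19.6% of all genes were higher without overlap.

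The difference that goes with Rorb therefore depended on age, and this was tested as such. The P28 minus P14 change of the Rorb-/- against +/+ difference was 3.03 ± 0.62 for Rpe65 (limma, adjusted p = 0.00631), 3.55 ± 0.73 for Rgr (adjusted p = 0.00639), 3.78 ± 0.72 for Ttr (adjusted p = 0.00374) and 2.45 ± 0.46 for Rdh5 (adjusted p = 0.00335). These 4 members of 6 were called, against 1.41% of all genes called higher. Lrat missed the threshold (2.18 ± 0.63, adjusted p = 0.0557) but passed it without P28 +/+ replicate 3 (2.65, adjusted p = 0.0116), with the replicate number as a block (2.18, adjusted p = 0.0497), and without P14 Rorb-/- replicate 1, P28 Rorb-/- replicate 4 or P28 Rorb-/-;CrxpNrl replicate 1 or 4, and Stra6 gave 0.29 ± 0.29 (adjusted p = 0.725). In mice with the transgene 5 of 6 members were called, against 8.58% of all genes: Rpe65 at 2.66 ± 0.65 (adjusted p = 0.00709), Rgr at 2.75 ± 0.76 (adjusted p = 0.0161), Ttr at 3.04 ± 0.75 (adjusted p = 0.00766), Lrat at 2.51 ± 0.65 (adjusted p = 0.0102) and Rdh5 at 2.10 ± 0.48 (adjusted p = 0.00425). Stra6 gave 0.24 ± 0.30 (adjusted p = 0.686), and the call of Rgr was lost without P28 +/+;CrxpNrl replicate 1 (adjusted p = 0.0538).

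**Figure D2:**
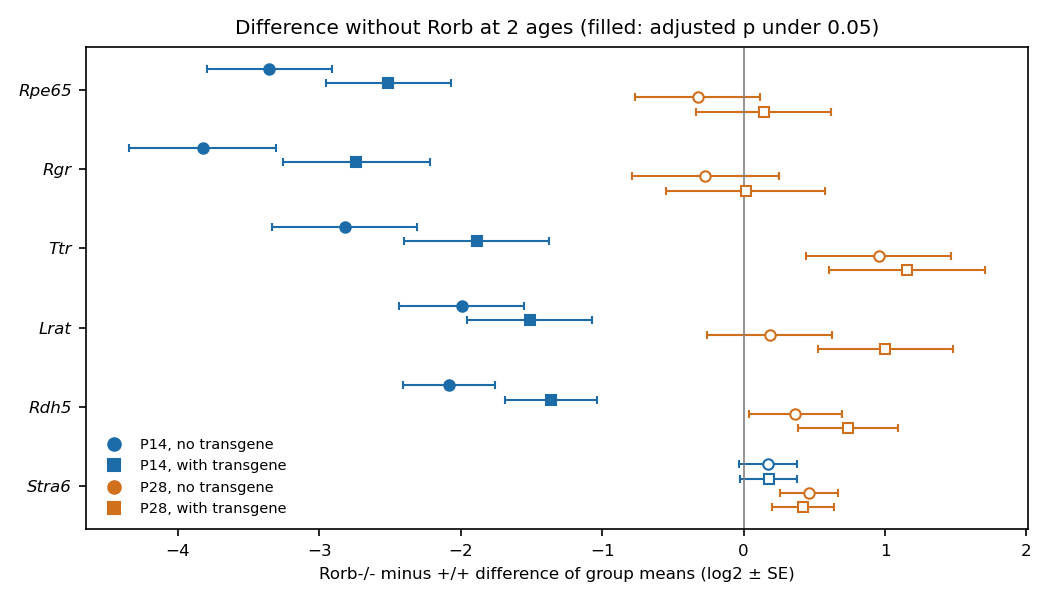
Difference of group means (log2 ± SE) between mice without and with Rorb for the 6 genes, at P14 (blue) and P28 (orange), without the transgene (circles) and with it (squares); filled symbols have adjusted p under 0.05. All filled symbols are P14 values of the 5 genes other than Stra6, between -3.83 and -1.36.

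Both sides of the comparison moved between the ages, in opposite directions. In +/+ mice 5 of 6 members were lower at P28 than at P14, against 7.94% of all genes: Ttr by -2.16 ± 0.51 (limma, adjusted p = 0.00445), Rpe65 by -1.80 ± 0.44 (adjusted p = 0.00595), Rgr by -1.69 ± 0.52 (adjusted p = 0.0270), Lrat by -1.43 ± 0.44 (adjusted p = 0.0280) and Rdh5 by -1.34 ± 0.33 (adjusted p = 0.00550). P28 +/+ replicate 3 lay within or above the P14 range for each of these, so the ages overlapped for all 5, and without it the differences were larger (Rgr -2.36, Rpe65 -2.37, Ttr -2.78). Stra6 did not overlap between the ages in +/+ mice (10.1% of all genes were lower without overlap) but missed the threshold (-0.58 ± 0.20, adjusted p = 0.0569). It passed the threshold in 5 of 31 fits that each left out 1 mouse, among them that without P28 +/+ replicate 3 (-0.68, adjusted p = 0.0414). Leaving out any 1 of P14 +/+ replicates 2 and 4 and P28 +/+ replicates 1, 2 and 4 left 3 members called, with Rgr and Lrat lost, and without P14 +/+ replicate 3 Rgr alone was lost.

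In Rorb-/- mice 3 of 6 members were higher at P28, against 6.15% of all genes: Rgr by 1.86 ± 0.52 (limma, adjusted p = 0.0138), Ttr by 1.62 ± 0.51 (adjusted p = 0.0308) and Rdh5 by 1.10 ± 0.33 (adjusted p = 0.0205). Rpe65 ranged from 4.39 to 5.01 at P14 and from 5.28 to 6.62 at P28, without overlap (7.62% of all genes were higher without overlap), but its difference of 1.23 ± 0.44 missed the threshold (adjusted p = 0.0592). These calls rest on few mice: without P28 Rorb-/- replicate 2 no member was called, and without P28 Rorb-/- replicate 1 or P14 Rorb-/- replicate 1 a single member, Rgr, was. The call of Ttr was also lost without P14 Rorb-/- replicate 2 or 4 or P28 Rorb-/- replicate 3. Rpe65 passed the threshold in 5 of 31 fits that each left out 1 mouse, among them those without P28 Rorb-/- replicate 4 (adjusted p = 0.0311) or P28 +/+ replicate 3.

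With the transgene the age differences ran the same way. In +/+;CrxpNrl mice 1 of 6 members, Rpe65, was called lower at P28 (-1.58 ± 0.48, limma, adjusted p = 0.0325), against 7.2% of all genes, although all 5 members other than Stra6 were lower without overlap between the ages, as were 15.3% of all genes. That call was lost when any 1 of P14 replicates 2, 3 and 4 or of the 3 P28 mice of this genotype was left out, and 4 members were called without P28 +/+ replicate 3 and 2 without P28 Rorb-/-;CrxpNrl replicate 4, which enter through the shared estimate of spread. In Rorb-/-;CrxpNrl mice 3 of 6 members were called higher at P28, against 13.6% of all genes: Ttr by 1.69 ± 0.51 (adjusted p = 0.0126), Lrat by 1.17 ± 0.44 (adjusted p = 0.0462) and Rdh5 by 1.12 ± 0.33 (adjusted p = 0.00972). No member was called without P28 Rorb-/-;CrxpNrl replicate 4, the mouse with the highest signal of its group for all 6 members, and 5 were called without replicate 1 or 2 of the same group or without P28 +/+ replicate 3. The call of Lrat was lost in 17 of 31 fits that each left out 1 mouse.

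The transgene itself went with no called difference in any member. Nrl signal overlapped between +/+;CrxpNrl and +/+ mice at P14 (12.89 to 13.35 against 13.31 to 13.33) and P28 (12.99 to 13.37 against 13.09 to 13.36). In Rorb-/-;CrxpNrl against Rorb-/- it was 11.3 to 12.3 against 8.78 to 10.6 at P14, and 9.39 to 11.9 against 8.70 to 9.97 at P28. Whether its probe set detects the transgene is not known. By limma 0 of 6 members were called, and 0 of 6 had an unadjusted p under 0.05, in +/+;CrxpNrl against +/+ at P14 (0.126% of all genes called in either direction) and at P28 (0.22% of all genes), in Rorb-/-;CrxpNrl against Rorb-/- at P14 (5.3% of all genes) and at P28 (19.2% of all genes), and in the interaction of Rorb and transgene at P14 (1.47% of all genes) and at P28 (5.47% of all genes). The medians of the 6 members in the first 4 of these comparisons were -0.61, -0.29, 0.17 and 0.10. Without P28 +/+ replicate 3 the differences of P28 +/+;CrxpNrl against +/+ turned from -0.45 to 0.12 for Rpe65, from -0.34 to 0.32 for Rgr and from -0.19 to 0.20 for Rdh5. That of Ttr went from 0.17 to 0.80, and still no member was called.

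Ordered by group mean, P14 +/+ was highest for Rpe65 (8.20 ± 0.17, SD, n = 4), Rgr (9.12 ± 0.32), Ttr (12.3 ± 0.24), Lrat (6.60 ± 0.43) and Rdh5 (8.03 ± 0.43), followed each time by P14 +/+;CrxpNrl. P14 Rorb-/- was lowest for Rpe65 (4.85 ± 0.30), Rgr (5.29 ± 0.21), Ttr (9.47 ± 0.70) and Rdh5 (5.95 ± 0.26), with P14 Rorb-/-;CrxpNrl next to lowest, and for Lrat the lowest was P14 Rorb-/-;CrxpNrl (4.42 ± 0.29). The 4 P28 groups lay between for Rpe65, Rgr, Ttr and Rdh5, while for Lrat P28 +/+;CrxpNrl (4.59 ± 0.44, n = 3) was level with P14 Rorb-/- (4.61 ± 0.58) and below it in rank. For Rgr the P28 groups were at 7.43 ± 1.36 in +/+, 7.15 ± 1.09 in Rorb-/-, 7.10 ± 0.89 in Rorb-/-;CrxpNrl and 7.09 ± 0.46 in +/+;CrxpNrl. Neighbours in this order overlapped in every gene, with the exception of P28 +/+;CrxpNrl and P14 Rorb-/-;CrxpNrl for Rpe65. Stra6 had another order, from P14 Rorb-/- (6.29 ± 0.33) to P28 +/+;CrxpNrl (5.29 ± 0.31), and all its neighbours overlapped. Mice of 1 group differed more at P28 than at P14 for the 5 members other than Stra6 in 3 of the 4 genotypes, while in +/+;CrxpNrl the SD was smaller at P28 for all 5 (0.86 and 0.35 for Rpe65, 0.52 and 0.46 for Rgr). Pooled over genotypes the SD within groups was 0.48 at P14 and 1.04 at P28 for Rgr, 0.53 and 1.01 for Ttr, and 0.31 and 0.31 for Stra6.

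The 5 members varied together within groups. Deviations from the group means over the 31 mice correlated at Pearson r of 0.73 (Ttr with Lrat) to 0.95 (Rgr with Rdh5) among them, and at 0.35 to 0.61 between Stra6 and the others, given as a description of samples that share their dissection. The other genes whose deviations were most like those of a member, among 8861 brighter genes, were Tmem98 for Rpe65 (r = 0.84), Rgr (r = 0.84), Lrat (r = 0.77) and Rdh5 (r = 0.89), and Ptgds for Ttr (r = 0.80). The melanin synthesis enzyme gene Dct was the third most alike for Rpe65 (r = 0.70) and Ttr (r = 0.74), and for Stra6 the most alike was Wdr45b (r = 0.67).

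Genes of melanin synthesis and melanosomes, which pigment epithelium and choroidal melanocytes use, moved in the same samples. Of the 9 measured of 10 listed, 7 were lower in P14 Rorb-/- against +/+, with a median of -0.93: Dct (-1.88 ± 0.36, limma, adjusted p = 0.000137), Tyr, which makes the melanin precursor (-1.53 ± 0.32, adjusted p = 0.000405), Tyrp1 (-1.21 ± 0.36, adjusted p = 0.0109), the melanosome fibre gene Pmel (-1.06 ± 0.28, adjusted p = 0.00379), and Mitf, Oca2 and Gpr143. Their mean signal per mouse was 6.28 to 6.52 in +/+, 5.25 to 5.62 in Rorb-/-, 5.69 to 6.44 in +/+;CrxpNrl and 5.23 to 5.81 in Rorb-/-;CrxpNrl at P14. At P28 it was 5.13 to 5.59 in +/+, 5.25 to 6.44 in Rorb-/-, 5.18 to 5.32 in +/+;CrxpNrl and 5.96 to 6.59 in Rorb-/-;CrxpNrl. The members' changes at P14 and the fall with age in +/+ mice thus ran alongside melanin genes, of which 6 were lower and 1, Mitf, higher at P28 than at P14 in +/+ (5.77% of all genes were called higher).

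At P28 some melanin genes were called between genotypes and no member was, which is not a test of a difference between the 2 sets. Of 9 melanin genes 3 were higher and 1 lower in Rorb-/- against +/+, where 31.1% of all genes were called in either direction. The median difference was 0.34 for the melanin genes and 0.28 for the members. In P28 Rorb-/- against +/+ Dct (1.66 ± 0.36, limma, adjusted p = 0.000522), Pmel (1.30 ± 0.28, adjusted p = 0.000471) and Tyrp1 (1.13 ± 0.36, adjusted p = 0.0167) were higher and Mitf, a transcription factor, was lower (-1.01 ± 0.10, adjusted p = 3.82e-09). In P28 Rorb-/-;CrxpNrl against +/+;CrxpNrl 6 of 9 melanin genes were higher and 1 lower, against 20.7% of all genes higher and 15.9% lower. P28 +/+ replicate 3, which had Rgr at 9.41 against 6.30 to 7.02 in its group, had a melanin mean of 5.59 against 5.13 to 5.40. Its mean of 9 other pigment epithelium genes stood further apart, at 6.27 against 5.71 to 5.73.

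Within groups the members followed the melanin mean from mouse to mouse. Over 31 mice the deviations of Rpe65 from its group means correlated with those of the melanin mean at r = 0.72 and Spearman's rho = 0.78 (permutation within groups, p = 7e-05 and 6e-05), those of Rgr at r = 0.71 and rho = 0.69 (permutation p = 0.00014 and 0.0004), those of Ttr at r = 0.73 and rho = 0.75 (permutation p = 7e-05 and 8e-05), those of Lrat at r = 0.72 and rho = 0.68 (permutation p = 6e-05 and 0.00031) and those of Rdh5 at r = 0.74 and rho = 0.76 (permutation p = 5e-05 and 0.00011). Stra6 gave r = 0.36 and rho = 0.37 (permutation p = 0.0556 and 0.0619). The 2 mice whose melanin mean lay farthest from the median over all mice were P14 +/+ replicate 4 and P28 Rorb-/-;CrxpNrl replicate 4. Without them r was 0.67 to 0.71 for the 5 members and 0.25 for Stra6. They were chosen by level and not by deviation from the group mean. P28 Rorb-/- replicates 2 and 4, at 6.44 and 5.25 around a group mean of 5.86, stayed in. Against the mean of 9 other pigment epithelium genes r was 0.76 to 0.83 for the 5 members and 0.48 for Stra6 (permutation p = 0.0196), which became 0.55 without the 2 mice farthest out in that mean. Against the mean of Dct and Pmel alone, the brighter melanin genes, r was 0.63 to 0.69 for the 5 members and 0.29 for Stra6. In all 18 relations were computed. After adjustment over the 18 the 5 members had permutation p of at most 0.00916 against each of the 3 means, and Stra6 had permutation p = 0.0221 for r against the other pigment epithelium genes, 0.0589 against the melanin mean and 0.151 against Dct and Pmel. Neither list holds a member.

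**Figure D3:**
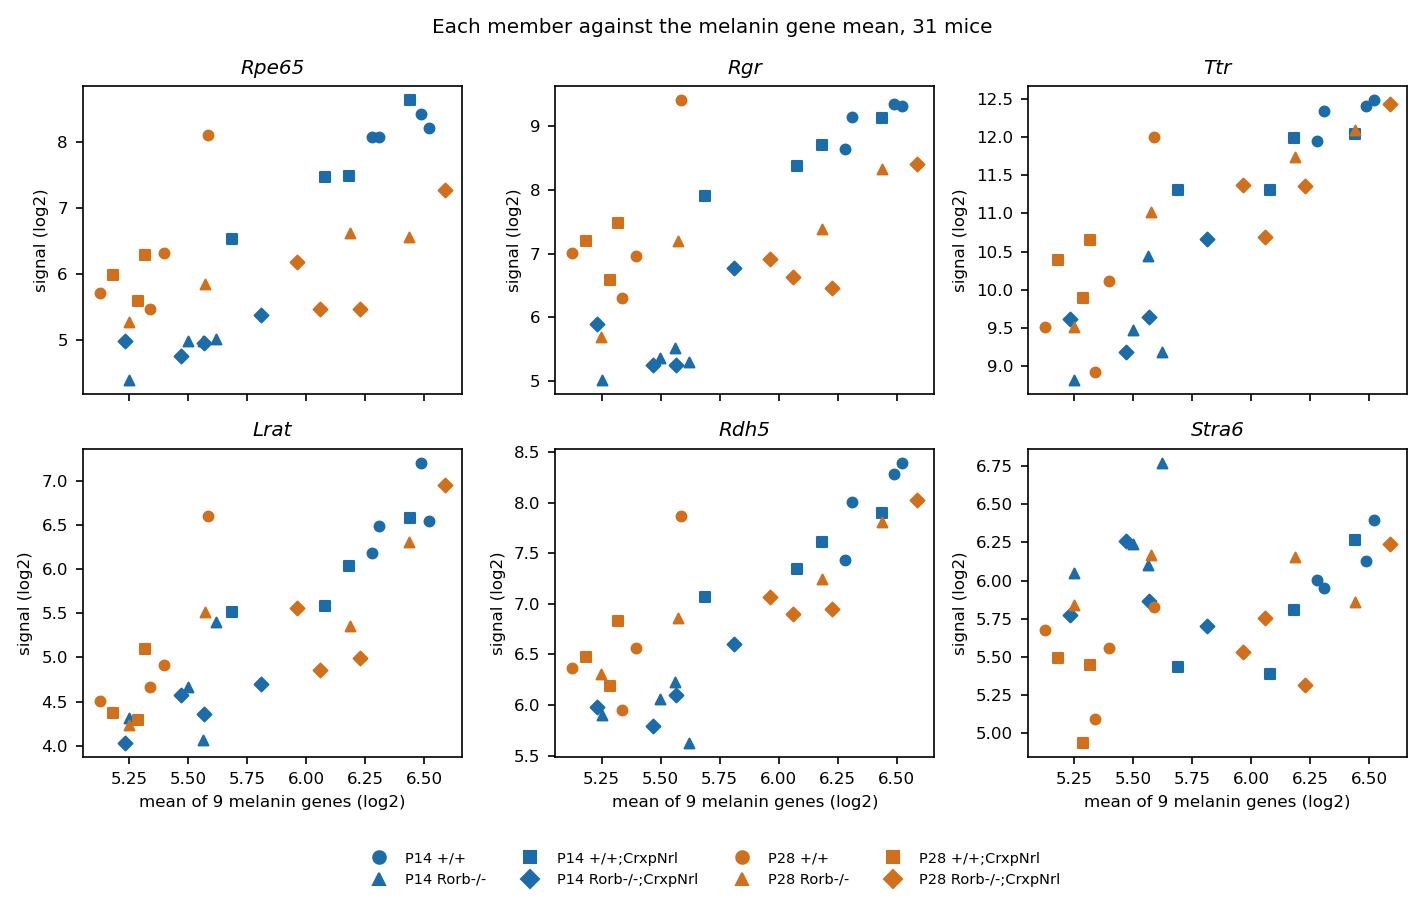
Signal (log2) of each of the 6 genes against the mean signal of the 9 measured melanin genes in the same mouse, for 31 mice; colour gives the age and the symbol the genotype. For the 5 genes other than Stra6 mice with a higher melanin mean tend to have more signal. P28 +/+ replicate 3 stands above this relation (melanin mean 5.59, Rgr 9.41). Its mean of 9 other pigment epithelium genes, not drawn here, was 6.27 against 5.71 to 5.73 in its group. P14 Rorb-/- mice (melanin mean 5.25 to 5.62) have less Rgr, 5.01 to 5.52, than P28 +/+ mice of like melanin means (5.13 to 5.59), with Rgr at 6.30 to 9.41.

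The members were also set against the melanin genes of the same mouse. Relative to the mean of the 9, Rpe65 was lower in P14 Rorb-/- than in +/+ by -2.44, Rgr by -2.91, Ttr by -1.91, Lrat by -1.08 and Rdh5 by -1.16, beyond the -0.92 of the melanin mean itself, and Stra6 was 1.09 higher. All 4 Rorb-/- mice lay outside the range of the 4 +/+ mice for each of the 6 genes (exact two-sided permutation test, p = 0.0286, the smallest that 4 against 4 allows). The melanin mean itself did not overlap between these groups (5.25 to 5.62 against 6.28 to 6.52). A gene of steady level is therefore shifted up on this scale, as was Stra6, whose own difference of 0.17 was not called. The share of all genes without overlap on this scale, or relative to Dct and Pmel, was not computed. At P28 the relative differences were between -0.82 (Rpe65, exact permutation p = 0.114) and 0.46 (Ttr, exact permutation p = 0.6). Adjusted over the 12 values of both ages, the lowest p was 0.0571 (exact permutation test). Dct and Pmel alone, both brighter, fell further at P14 (mean -1.47), and relative to them Rpe65 was lower by -1.89, Rgr by -2.36 and Ttr by -1.35, without overlap. For Rdh5 the value was then -0.61 (exact permutation p = 0.0286), and for Lrat it was -0.53 with overlap (exact permutation p = 0.229), so how far these 2 genes fell beyond the melanin genes depended on which melanin genes were taken. At P28 the value of Rpe65 relative to Dct and Pmel was -1.81 (exact permutation p = 0.0286), and no relative value was taken without P28 +/+ replicate 3. A difference of log signals between genes shows unequal change of probe sets, and probe sets differ in how steeply they respond.

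With the melanin mean as a covariate in the fit, Rpe65 (-1.75 ± 0.43, limma, adjusted p = 0.00414) and Rgr (-1.96 ± 0.51, adjusted p = 0.00671) were still called lower in P14 Rorb-/- against +/+, while Ttr (-0.93, adjusted p = 0.220), Lrat (-0.41, adjusted p = 0.611) and Rdh5 (-0.87, adjusted p = 0.0511) were not. At P28 this fit called Rpe65 (-1.19 ± 0.35, adjusted p = 0.0116) and Rgr (-1.29 ± 0.42, adjusted p = 0.0219) lower in Rorb-/- against +/+, which the fit without covariate did not. In mice with the transgene it called the same 2 genes lower without Rorb, at P14 (Rpe65 -1.51 ± 0.37, adjusted p = 0.00270; Rgr -1.56 ± 0.43, adjusted p = 0.00809) and at P28 (Rpe65 -1.51 ± 0.46, adjusted p = 0.0150; Rgr -1.91 ± 0.54, adjusted p = 0.00930). Of all genes, 8.77% were called lower by this fit in the P14 and 12.7% in the P28 comparison of Rorb-/- with +/+. With the transgene these shares were 11.2% and 10.3%. This fit was not repeated with single mice left out. Whether its P28 calls in Rorb-/- against +/+ hold without P28 +/+ replicate 3 (Rpe65 8.11, Rgr 9.41) is therefore not known. By limma with the covariate 0 of 6 members were called in each of the 4 comparisons of ages and in both changes of the Rorb difference with age, and at an unadjusted p under 0.05 there were 4 (Rgr, Ttr, Rdh5 and Stra6) in Rorb-/- mice and 0 in the other 5. The loss of calls was not particular to the members: over all genes the calls between the ages in +/+ mice went from 2495 to 410 (2.25% of all genes in either direction), and those for the change of the Rorb difference without the transgene from 495 to 30 (0.165%). The fit called 12.5% of all genes between the ages in Rorb-/-, 3.52% in +/+;CrxpNrl and 20.7% in Rorb-/-;CrxpNrl, and 1.39% for the change of the Rorb difference with the transgene. In +/+ mice the P28 minus P14 difference became 0.01 for Rpe65, 0.42 for Rgr and -0.01 for Ttr. The melanin mean differs between the groups itself, so this fit takes from each member whatever part of the group difference runs with it. The part of adherent pigment epithelium in the members' changes was not tested beyond these values.

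**Figure D4:**
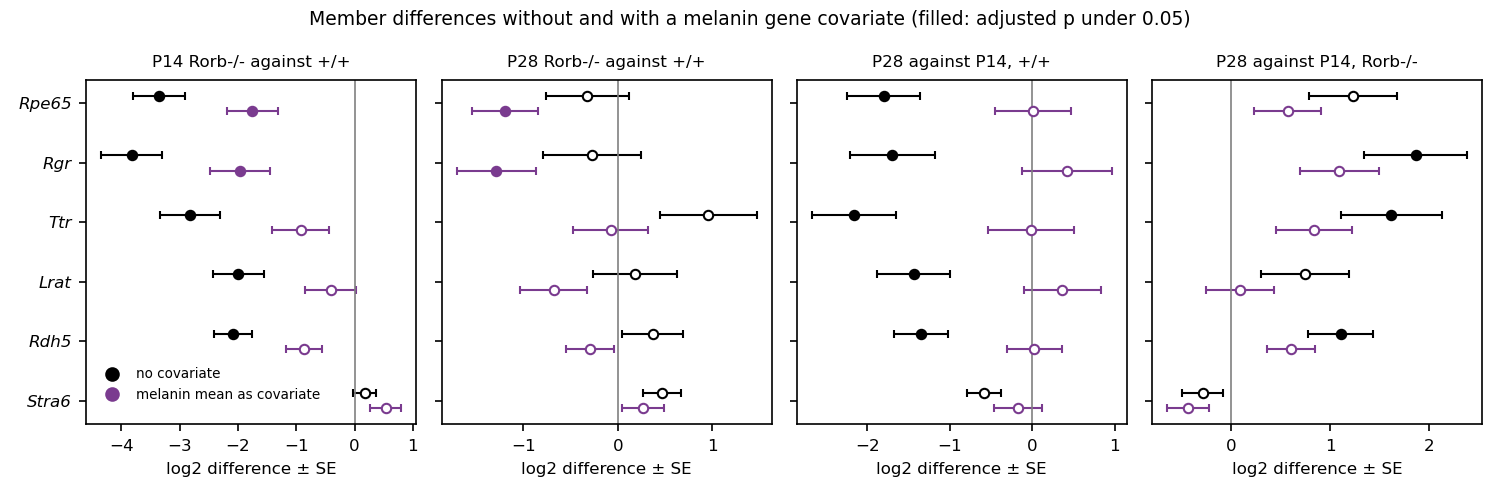
Differences (log2 ± SE) of the 6 genes without (black) and with (purple) the melanin gene mean as a covariate, in 4 comparisons; filled symbols have adjusted p under 0.05. With the covariate Rpe65 and Rgr are called lower without Rorb at both ages (-1.96 to -1.19), and no gene is called between ages.

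Pigment epithelium genes outside melanin and retinoid handling gave mixed results. Of 9 measured of 11 listed, 4 were lower in P14 Rorb-/- against +/+ and 2 higher (16% of all genes were called higher), with a median of -0.40. Slc6a20a, a proline transporter gene (-1.94 ± 0.33, limma, adjusted p = 2.79e-05), Slc16a8, the lactate carrier of the pigment epithelium (-1.21 ± 0.21, adjusted p = 3.35e-05), Kcnj13, its potassium channel (-0.87 ± 0.27, adjusted p = 0.0147), and Clic6 (-0.54 ± 0.13, adjusted p = 0.00116) fell. The keratin gene Krt18 (1.17 ± 0.31, adjusted p = 0.00413) and Sostdc1 (0.90 ± 0.20, adjusted p = 0.000604) rose, and Best1, the bestrophin channel, gave -0.22 ± 0.12 (adjusted p = 0.191). At P28 4 were higher, Krt18, Sostdc1, Ermn and Kcnj13, against 15.9% of all genes, and none was lower.

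Other visual cycle genes of pigment epithelium or Müller glia went both ways. Of 7 measured of 8 listed, 3 were higher and 2 lower in P14 Rorb-/- against +/+, and 5 higher and 2 lower at P28. Rrh (peropsin), an opsin of the pigment epithelium related to Rgr, was higher by 0.998 ± 0.13 at P14 (limma, adjusted p = 5.28e-07) and by 0.99 ± 0.13 at P28 (adjusted p = 5.37e-07). Rbp4, the retinol carrier, was higher by 1.29 ± 0.17 at P14 (adjusted p = 4.99e-07) and by 1.56 ± 0.17 at P28 (adjusted p = 1.36e-08), and the retinol dehydrogenase gene Rdh10 by 0.48 ± 0.11 and 0.96 ± 0.11. Dhrs3, which reduces retinal to retinol, was lower by -1.70 ± 0.11 at P14 (adjusted p = 4.20e-13) and by -1.36 ± 0.11 at P28 (adjusted p = 3.88e-11), and Rdh11 by -0.55 ± 0.11 and -0.62 ± 0.11. Rlbp1, which encodes the 11-cis-retinal binding protein of pigment epithelium and Müller glia, gave 0.07 ± 0.08 at P14 (adjusted p = 0.599) and 0.24 ± 0.08 at P28 (adjusted p = 0.0340). By limma 0 of these 7 genes were called for a change of the Rorb difference between the ages in mice without the transgene (2.72% of all genes in either direction). Of the 7, 2, Dhrs3 and Rdh10, had an unadjusted p under 0.05.

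Of 3 measured of 4 listed photoreceptor genes of the cycle, 2 were lower in Rorb-/- at both ages. Rdh12, which reduces all-trans-retinal in photoreceptors, was lower by -2.38 ± 0.29 at P14 (limma, adjusted p = 1.97e-07) and by -2.43 ± 0.29 at P28 (adjusted p = 1.24e-07), and Abca4, the retinoid flippase of outer segments, by -1.01 ± 0.25 (adjusted p = 0.00268) and -1.15 ± 0.25 (adjusted p = 0.000669). Rbp3, the retinoid carrier between photoreceptors and pigment epithelium, gave 0.05 ± 0.25 (adjusted p = 0.906) and 0.11 ± 0.25 (adjusted p = 0.800). By limma 0 of these 3 genes were called, and 0 had an unadjusted p under 0.05, for a change of the Rorb difference between the ages without the transgene (2.72% of all genes in either direction). Of 6 vessel genes, which choroid and retina share, 5 were lower and 1, Kdr, was higher at P14, and their mean was 5.92 to 6.27 in Rorb-/- against 6.77 to 6.97 in +/+. At P28 3 were lower and Kdr was higher. Of 7 fibroblast genes of the kind found in choroid and sclera 2, Col1a2 and Dcn, were higher and 2, Col3a1 and Mgp, lower at P14, where the list means overlapped (5.22 to 5.90 against 5.41 to 5.67). At P28 3 of the 7, Col1a2, Dcn and Lum, were higher and Mgp was lower, and the means did not overlap (5.54 to 6.19 in Rorb-/- against 5.14 to 5.37 in +/+). Whether these tissues take part in the members' differences was not tested. Without the transgene the change of the Rorb difference with age was called higher for 5 of 9 melanin and 3 of 9 other pigment epithelium genes. It was also called for 2 of 7 Müller glia and 1 of 6 vessel genes (1.41% of all genes higher). With the transgene these counts were 6, 3, 4 and 3, with 2 of 7 fibroblast and 1 of 7 other visual cycle genes (8.58% of all genes). Of 4 measured genes of choroid plexus type epithelium 2 were also called higher for this change with the transgene, and 0 without it. In Rorb-/- against +/+ 1 of these 4 was lower at P14 (13.9% of all genes) and 2 were higher at P28 (15.9% of all genes).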

How the data were processed

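The deposited log2 values were made by the authors with RMA, per the submitters' processing notes, with no version named; RMA shrinks signals near background, so that small levels and differences there are compressed. They were used as deposited. Of 45101 probe sets, 34958 had a single gene symbol, while 932 had several and 9211 had none. Without control probe sets 34945 were used, and each gene was represented by its probe set with the highest mean, giving 18193 genes. A second Rdh5 probe set shared with another gene was not used.

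limma was fitted to all 31 arrays, with 1 mean for each group and a prior variance that follows the signal, after it was tested on simulated data, and 16 comparisons were taken. The mean of 9 measured melanin genes was tried as a covariate, and the brighter of them as an alternative chosen after seeing the data. Members, lists and tests were chosen with earlier results of these data known. The text names the 6 members, Rorb, Nrl, list genes and, for likeness, the genes with the highest correlation of deviations from the group means, leaving out members, sex-linked genes and unnamed transcripts. The labels call the mice biological replicates.

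Alternatives covered scaling, probe sets, dim genes (the lowest 40%), prior variance, array weights, the replicate number as a block, which groups were fitted together, and leaving out single mice. Equal replicate numbers correlated above 0.1 in every pair for the P14 comparison of Rorb-/- with +/+ (0.112 to 0.294), for the P28 transgene comparison in mice with Rorb (0.212 to 0.37) and for that of the ages in +/+;CrxpNrl (0.228 to 0.302), a pairing that comes from the data only. Permutation tests drew 100000 orders or were exact. Motifs were searched in RefSeq promoter sequences (GRCm38.p6), which held 5 of the 6 members and not Ttr. R 4.3.3, limma 3.58.1, data.table (1.17.8), Python 3.11.15, numpy 2.4.6, pandas 2.3.3, scipy 1.17.1 and matplotlib 3.10.9 were used.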

Additional observations from a re-analysis of the deposited data

Results flagged for a closer look

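Of 42 groups of 4 checked for a mouse far from the others, 2 were flagged, and chance flags about 1 in 20. Rpe65 in P14 Rorb-/- replicate 4 was at 4.39, below the nearest of its group at 4.99. Rdh5 in P28 Rorb-/-;CrxpNrl replicate 4 was at 8.03, above the nearest of its group at 7.07.

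The difference between mice without and with Rorb changed from P14 to P28, by the test of that change itself. Without the transgene the change was 3.03 for Rpe65, 3.55 for Rgr, 3.78 for Ttr and 2.45 for Rdh5 (log2, P28 minus P14), and with the transgene it was 2.66 for Rpe65, 2.75 for Rgr, 3.04 for Ttr, 2.51 for Lrat and 2.10 for Rdh5.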

How the results depend on the processing

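The counts of members called kept within 1.5 times of those reported under both array scalings, both other choices of probe sets, the filter on dim genes, no variance trend and the replicate block. The block moved Lrat (2.18, adjusted p = 0.0497) in the change of the Rorb difference with age and Stra6 (-0.58, adjusted p = 0.0486) in P28 against P14 in +/+ past the threshold and ended or added no other call of a member. With array weights the members called were 4 in P28 Rorb-/-;CrxpNrl against +/+;CrxpNrl, 3 in P28 against P14 in +/+;CrxpNrl and 5 in Rorb-/-;CrxpNrl. When a fit held only the groups compared they were 1 in each P28 comparison of Rorb and 5 in P28 against P14 in +/+;CrxpNrl. With each mouse left out they ranged from 0 to 1 in P28 Rorb-/- against +/+, and between the ages from 3 to 6 in +/+, 0 to 4 in Rorb-/-, 0 to 4 in +/+;CrxpNrl and 0 to 5 in Rorb-/-;CrxpNrl; the P14 comparisons of Rorb stayed at 5, and the change with age at 4 to 5. The cause was not tested.

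With the melanin mean as a covariate 2 members were called in each comparison of Rorb at each age, and 0 between the ages and in both changes of the Rorb difference with age (of all genes 8.77% to 12.7% were called lower in the former, and 0.165% to 20.7% in either direction in the latter). With the brighter melanin genes, Dct and Pmel, the counts were the same except 3 in P14 Rorb-/- against +/+. Neither covariate fit was repeated with single mice left out. Signs turned, with the melanin mean, in P28 Rorb-/-;CrxpNrl against +/+;CrxpNrl for Rpe65 (-1.51), Rgr (-1.91), and in P28 against P14 in +/+ for Rpe65 (0.012), Rgr (0.42), Lrat (0.36), Rdh5 (0.026), and in P28 against P14 in Rorb-/-;CrxpNrl for Lrat (-0.021), and in the change of the Rorb difference with age, with the transgene for Rpe65 (-0.0022), Rgr (-0.35), Ttr (-0.11), Lrat (-0.12). With the brighter genes they turned in P28 Rorb-/-;CrxpNrl against +/+;CrxpNrl for Rpe65 (-2.03), Rgr (-2.43), and in P28 against P14 in +/+ for Rpe65 (0.49), Rgr (0.89), Ttr (0.63), Lrat (0.74), Rdh5 (0.43), and in P28 against P14 in +/+;CrxpNrl for Rpe65 (0.27), and in P28 against P14 in Rorb-/-;CrxpNrl for Lrat (-0.042), and in the change of the Rorb difference with age, with the transgene for Rpe65 (-0.47), Rgr (-0.77), Ttr (-0.76), Lrat (-0.46), Rdh5 (-0.32). Signal near the lower quartile limits Lrat in mice without Rorb at P14.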
